A study of Rattus norvegicus with 2 samples.

Results

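Macrophages and the signals that draw monocytes into tissue were followed through 6 genes: Lyz2, C1qb, Cd14 and Cd48, which mark macrophages or leukocytes at large, and the chemoattractants Ccl2 and Cx3cl1. Every probe set of the deposited table whose annotated symbol is one of the 6 names was taken, which gave 11 of 8740 non-control probe sets. A probe set is a group of short oligonucleotides on the array that together read 1 transcript. Heart RNA of male Dahl salt-sensitive (DS) rats, whose blood pressure climbs on a salty diet, was read at an age of 17 weeks. The high-salt group held 1 array, labelled as coming from a rat with chronic heart failure. The low-salt group held 1 array, of the same sex, strain and age and with no condition given. Whether each RNA was of 1 animal or pooled, and which chamber it was taken from, is not stated in the labels. With 1 array per diet there is no spread between replicates, so no p-value is given and each difference describes this pair of arrays.

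Monocytes leave the blood along gradients of chemokines and become macrophages in the tissue. Ccl2, also called MCP-1, acts on monocytes through the receptor Ccr2. Cx3cl1, or fractalkine, is made as a membrane-bound protein of endothelial and other cells that can also be shed, and it acts through Cx3cr1. In the heart, resident macrophages are joined by recruited monocytes under injury or pressure load. The title of the study links a cardiac lipoxygenase to inflammation in heart failure, and the comparison of the diets asks whether these transcripts differed between the failing and the low-salt heart.

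Macrophage genes are widely controlled by PU.1, an ETS-family transcription factor of myeloid cells that binds DNA around the core GAGGAA. The 250 bases before the annotated start are shown for Lyz2, C1qb and Cx3cl1, the members with the highest ratios among the 5 of 6 whose promoters matched by symbol in the RefSeq table of build GRCr8. Capitals mark GAGGAA or its reverse complement, and also TATAAA, the core of a TATA box, searched in the same way on both strands with no overlap between the matches printed.
Lyz2, chr7:54798012-54798261, minus strand: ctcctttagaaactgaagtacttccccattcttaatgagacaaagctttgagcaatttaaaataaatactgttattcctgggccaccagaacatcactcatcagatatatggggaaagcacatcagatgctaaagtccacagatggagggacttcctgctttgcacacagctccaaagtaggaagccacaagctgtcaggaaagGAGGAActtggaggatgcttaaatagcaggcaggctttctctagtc
C1qb, chr5:154407828-154408077, minus strand: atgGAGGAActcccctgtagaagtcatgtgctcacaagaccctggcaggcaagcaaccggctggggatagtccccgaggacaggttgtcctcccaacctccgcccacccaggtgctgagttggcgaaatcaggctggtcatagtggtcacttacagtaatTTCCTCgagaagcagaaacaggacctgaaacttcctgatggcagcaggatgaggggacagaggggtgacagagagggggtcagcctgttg
Cx3cl1, chr19:10242821-10243070, minus strand: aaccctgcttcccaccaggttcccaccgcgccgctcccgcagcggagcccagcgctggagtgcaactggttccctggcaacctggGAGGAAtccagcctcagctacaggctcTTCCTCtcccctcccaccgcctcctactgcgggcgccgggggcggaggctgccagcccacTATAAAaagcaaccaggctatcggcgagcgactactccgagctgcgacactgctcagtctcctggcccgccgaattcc
The GAGGAA letters lay 46 to 41 bases before the start of Lyz2, on the printed strand. C1qb and Cx3cl1 each held 2 matches, 1 on either strand, and Cd14 held 2 on the printed strand, while the Cd48 window held 0. Of 33469 rat promoters of this length in the table, 23.3% held the letters on one strand or the other. TATAAA was found in the Cx3cl1 window, 78 to 73 bases before the start, and in 12.9% of all promoters. These matches describe the letters of the windows and are no evidence of binding in these hearts.

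Across both arrays 27.3% to 27.4% of the probe sets read below 0, and the 2% trimmed mean intensity was 100.2 on each. A lower floor of 10.9, the 40th percentile of all values, was set under the readings before log2 ratios were taken, and a probe set under it on both arrays was left unmeasured. A noise floor of 126.4, taken so that 95% of the readings below 0 were closer to 0 than it, was used as a stand-in for a detection call. It was reached by 19.95% of probe sets on the high-salt array and 20.27% on the low-salt array. The heart muscle markers of the label were bright, with 9 of 10 measured over the noise floor. Their median log2 ratio, by the brightest probe set of each gene, was -0.11. Some other bright probe sets of these genes differed more, among them X15939_i_at of Myh7 at 1.05 and rc_AI104924_f_at of Myh6 at -0.94. As the one measure of error the arrays hold, the log2 ratios of a gene's several probe sets had a pooled SD of 0.47 over 736 genes with readings over the lower floor for both diets, and of 0.22 over the 231 genes with probe sets above the noise floor on both. Neither SD holds any variation between animals.

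Lyz2 was the member with the highest reading and the highest ratio in the high-salt heart, and the other members differed less or were close to the noise. Of the 11 probe sets, 9 were measured and all 9 exceeded the lower floor for both diets. At 2-fold or more, 3 of the 9 were higher in the high-salt heart, 0 were lower and 6 were neither. Over all 5707 measured probe sets, 7.25% were at least 2-fold higher and 7.62% at least 2-fold lower. The ratio was above 1 for 8 of the 9 member probe sets and below 1 for Cd48, whose log2 ratio of -0.06 became 0.03 when the arrays were scaled to their medians. The median log2 ratio of the 9 was 0.88, with quartiles of 0.31 and 1.16, beside a median of -0.08 over all measured probe sets, with quartiles of -0.42 and 0.29. Several of the 9 read the same gene, so they are not independent. Only 2 member probe sets, of Lyz2 and Cd14, were above the noise floor on both arrays, 3 reached it on 1 array, and 6 on neither. With readings raised to the noise floor, 1 of the 5 that reached it, Lyz2, stayed past 2-fold, against a background of 3.53% higher and 1.69% lower among 1955 probe sets.

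**Figure D1:**
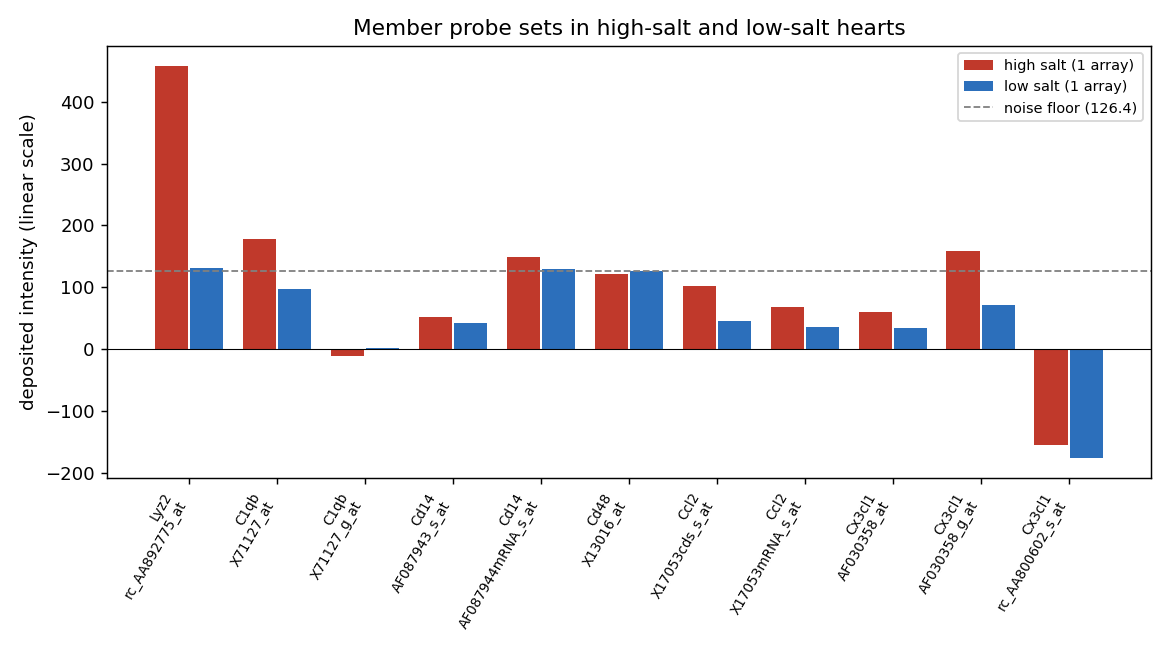
Deposited intensity on a linear scale (vertical axis) of the 11 member probe sets on the high-salt array (red, left bar of each pair) and the low-salt array (blue, right bar), with the noise floor of 126.4 dashed. There is 1 array per diet, so bars carry no error; Lyz2 at 458.6 with high salt against 130.4 with low salt is the one pair far apart and above the dashed line on both arrays, and bars under 0 are readings below 0.

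Lyz2 encodes lysozyme, the bacterial cell wall hydrolase secreted by macrophages and neutrophils. Its single probe set, rc_AA892775_at, read 458.6 with high salt and 130.4 with low salt, which is 3.52-fold or 1.81 on the log2 scale. The high-salt reading stood at the 92.3 percentile of its array and the low-salt reading at the 80.1 percentile, just over the noise floor. The difference of 328.2 intensity units was larger than the noise floor itself, which holds for no other member. Among the 1561 probe sets above the noise floor on both arrays, 3.07% were at least 2-fold higher and 1.41% at least 2-fold lower, and 10 (0.641%), Lyz2 included, had a ratio as high as that of Lyz2. That share holds for a class whose edge lies at 126.4, close to the low-salt reading of Lyz2. Of the 394 probe sets above the noise floor on 1 array only, 19% were at least 2-fold higher and 15% at least 2-fold lower. Over all measured probe sets, dim ones included, Lyz2 ranked 118 of 5707. RefSeq lists a second lysozyme gene on the same chromosome, Lyc2, which has Lyz2 among its synonyms, and the deposited values do not show whether the probe set tells the 2 apart. In RNA of whole tissue, a change in the number of cells of a type and a change in the RNA per cell cannot be told apart. On the same arrays the 3 red blood cell markers, all higher in their brightest probe set, summed there to 7944.9 with high salt and 3134.8 with low salt. The 6 neutrophil markers, none of which reached the noise floor, summed to 158.3 with high salt and 32 with low salt. Their part in the Lyz2 difference was not tested.

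The probe sets of other named genes closest to Lyz2 in the 2 log2 readings were those of Hsd11b1, S100a4 and Fuca1. Hsd11b1, which regenerates active glucocorticoid, read 413.9 with high salt and 149.9 with low salt, at a distance of 0.25 from Lyz2 on the log2 scale. S100a4, a calcium-binding protein of fibroblasts and leukocytes, read 461.8 with high salt and 99.8 with low salt, and Fuca1, a lysosomal fucosidase, 366.3 with high salt and 104.3 with low salt. With 2 arrays this likeness amounts to a similar brightness and ratio and nothing further.

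C1qb encodes a chain of C1q, the recognition subunit of the first complement component, which tissue macrophages make in quantity. Its brighter probe set, X71127_at, read 178.1 with high salt and 97.1 with low salt, a log2 ratio of 0.88 or 1.83-fold. The low-salt reading was under the noise floor, and with it raised to that floor the ratio was 1.41-fold. Of 394 probe sets that passed the noise floor on 1 array, 19% were at least 2-fold higher and 15% at least 2-fold lower, a class that favours readings far apart. The second probe set, X71127_g_at, designed on the same sequence record, read -11.4 with high salt and 1.1 with low salt and was unmeasured.

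Cd14, the co-receptor through which monocytes and macrophages bind bacterial endotoxin, was nearly equal on the 2 arrays. AF087944mRNA_s_at read 149.1 with high salt and 128.7 with low salt, both over the noise floor, with a log2 ratio of 0.21. AF087943_s_at read 51.8 with high salt and 41.8 with low salt, with a log2 ratio of 0.31. The larger log2 ratio was below the SD of 0.47 between probe sets of a gene, the ratio of the brighter probe set was below the SD of 0.22 for bright probe sets, and the 2 differed from each other by 0.10.

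Cd48, a surface ligand of the signalling lymphocyte activation family carried by most leukocytes, did not reach 2-fold in either direction. X13016_at read 122.0 with high salt and 126.9 with low salt, a log2 ratio of -0.06. Both readings lay close to the noise floor. Lyz2, also read by a single probe set, had a log2 ratio of 1.81 on the same 2 arrays, so the leukocyte markers among the members did not share a ratio.

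Both chemoattractants read higher in the high-salt heart in every measured probe set, at low intensity. For Ccl2, X17053cds_s_at read 101.6 with high salt and 45.5 with low salt, a log2 ratio of 1.16 or 2.23-fold. X17053mRNA_s_at read 68.3 with high salt and 36.3 with low salt, a log2 ratio of 0.91 or 1.88-fold. The 2 probe sets come from 1 sequence record, so they may share oligonucleotides, and all 4 readings were under the noise floor. Among the 3752 measured probe sets under that floor on both arrays, 7.76% were at least 2-fold higher and 9.43% at least 2-fold lower. In this dim range the log2 ratios of probe sets of the same gene had an SD of 0.73 over 444 genes, which again holds no variation between animals.

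For Cx3cl1, AF030358_g_at read 159.3 with high salt and 70.6 with low salt, a log2 ratio of 1.17 or 2.26-fold. With the low-salt reading raised to the noise floor, which it did not reach, the ratio was 1.26-fold. Of 394 probe sets that passed that floor on 1 array, 19% were at least 2-fold higher and 15% at least 2-fold lower. AF030358_at, from the same record, read 60.6 with high salt and 33.6 with low salt, a log2 ratio of 0.85 or 1.80-fold. Both of these readings were under the noise floor. The third, rc_AA800602_s_at, read -155.5 with high salt and -176.7 with low salt and was unmeasured. Both measured probe sets of Cx3cl1 thus read higher with high salt, while the one from another record gave no level.

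**Figure D2:**
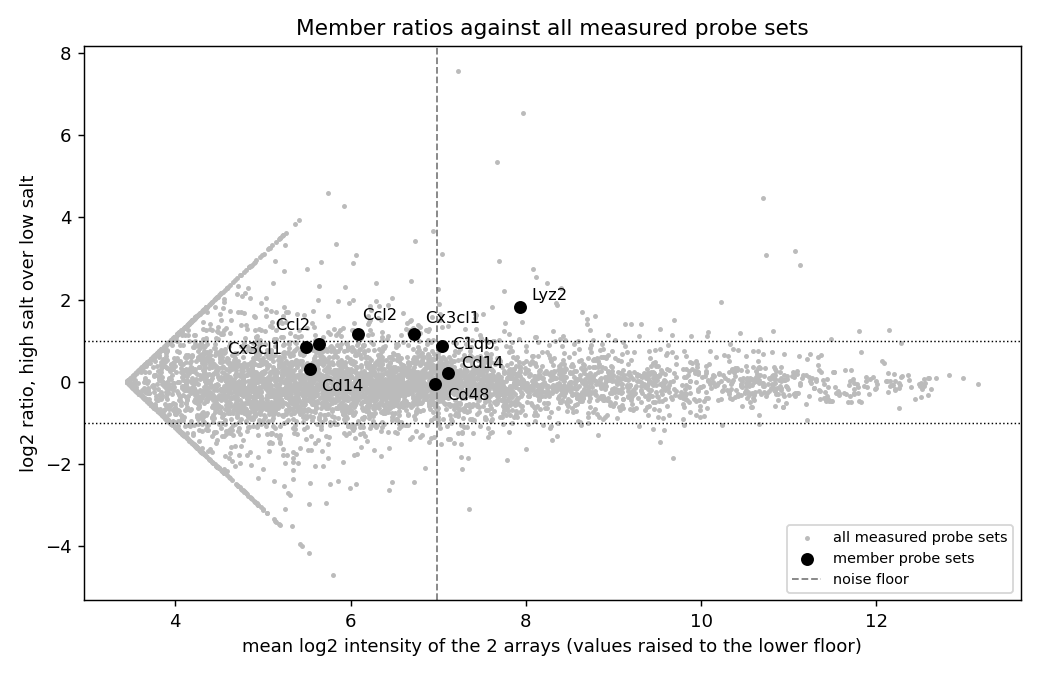
Log2 ratio, high-salt array over low-salt array (vertical axis), against the mean log2 intensity of the 2 arrays (horizontal axis), for all 5707 measured probe sets (grey) and the 9 measured member probe sets (black). Dotted lines mark 2-fold and the dashed line the noise floor; Lyz2, at a log2 ratio of 1.81, lies right of the dashed line and above the grey band, whereas Ccl2 and Cx3cl1 lie left of it, where the grey band is wide.

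The receptors of the 2 chemoattractants were at the limit of the arrays. Ccr2 read 11.7 with high salt and 10.6 with low salt, and Cx3cr1, found on resident macrophages and monocytes, read 4.6 with high salt and -0.4 with low salt. Neither reading allows a statement on the receptor. Of 22 other chemokine and chemokine receptor genes with a probe set, these receptors included, 13 were measured. At 2-fold or more, 2 were higher, 1 was lower and 10 were neither, beside 7.3% higher and 7.27% lower over all 3451 genes measured by their brightest probe set. Their median log2 ratio was -0.31, beside -0.09 over all genes. Against the noise floor the list median was 0.25, the opposite sign, over the 2 genes that reached it: the platelet chemokine Pf4 read 223.6 with high salt and 123.5 with low salt, and Cxcr1 250.5 with high salt and 313.0 with low salt. Cxcl6 at 86.9 with high salt against 40.4 with low salt and Cxcr5 at 29.0 with high salt against 1.7 with low salt were the higher genes and Ccl20 at 6.5 with high salt against 23.6 with low salt the lower one. These 3 were under the noise floor and were named after their values were seen.

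Other macrophage and monocyte markers gave mixed readings. Of 11 genes with a probe set besides the members, 9 were measured, of which 1 was at least 2-fold higher, 1 lower and 7 neither, close to the 7.3% higher and 7.27% lower over all genes. Their median log2 ratio was 0.21. Lgals3, the galectin of activated macrophages, also made by other cells, read 165.3 with high salt and 66.9 with low salt. Its ratio was 1.31-fold with the noise floor taken as the lower value. Ctss, a lysosomal protease of antigen-presenting cells, read 135.3 with high salt and 94.4 with low salt. The receptor gene Csf1r, the lower one and named after its values were seen, read 1.0 with high salt and 22.7 with low salt, far under the noise floor. Itgam and Cd4, which rat macrophages carry, were under the lower floor on both arrays. The summed intensity of the list, with readings below 0 set to 0, was 523 on the high-salt array and 374.3 on the low-salt array, and no gene of it was at or below 0 on both. Most of the difference between these sums came from Lgals3, and most of the rest from Ctss.

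C1qb can be set beside the other parts of the first complement component. C1r, a protease of that complex, read 296.7 with high salt and 177.6 with low salt, a log2 ratio of 0.74. C1s, the second protease, read 170.2 with high salt and 117.0 with low salt, a log2 ratio of 0.54. Serping1, the inhibitor that removes both proteases, read 238.8 with high salt and 117.4 with low salt, a log2 ratio of 1.02. Its ratio was 1.89-fold with the low-salt reading raised to the noise floor. C1qc, another chain of C1q, read 61.5 with high salt and 53.0 with low salt in its brightest probe set, under the noise floor. Of 12 complement genes measured besides C1qb, 1 was at least 2-fold higher, 0 were lower and 11 were neither, close to the 7.3% higher over all genes, with 7.27% lower. A ratio above 1 was found for 10. The list median was 0.19, or 0.58 over the 6 genes above the noise floor on 1 or both arrays, none of them past 2-fold against it. Clu, a secreted chaperone that also restrains complement, read 4666.5 with high salt and 2820.9 with low salt and made up most of the summed intensity of the list.

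The partners of Cd14 gave little signal. Lbp, which hands endotoxin to Cd14, read -58.4 with high salt and 57.3 with low salt, and Tlr4, the signalling receptor, read -2.0 with high salt and 1.5 with low salt in one probe set and 2.9 with high salt and 3.6 with low salt in the other. Of 7 measured genes in the list of the endotoxin receptor and NF-kappa-B, 2 were at least 2-fold higher, 1 lower and 4 neither, beside 7.3% higher and 7.27% lower over all genes. The list median was 0.61, or 0.04 over the 3 genes reaching the noise floor. Those 3 were Tnfrsf1a, a receptor of tumour necrosis factor, at 129.8 with high salt against -6.1 with low salt, Nfkb1 at 172.3 with high salt against 113.0 with low salt, and the inhibitor Nfkbia at 174.0 with high salt against 283.5 with low salt. The other Nfkbia probe set read 71.4 with high salt and 198.3 with low salt, a log2 ratio of -1.47. None of the 6 measured leukocyte adhesion genes passed 2-fold, and their median was 0.16. Madcam1 read 178.6 with high salt against 190.9 with low salt and the endothelial adhesion molecule Pecam1 117.5 with high salt against 107.4 with low salt.

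**Figure D3:**
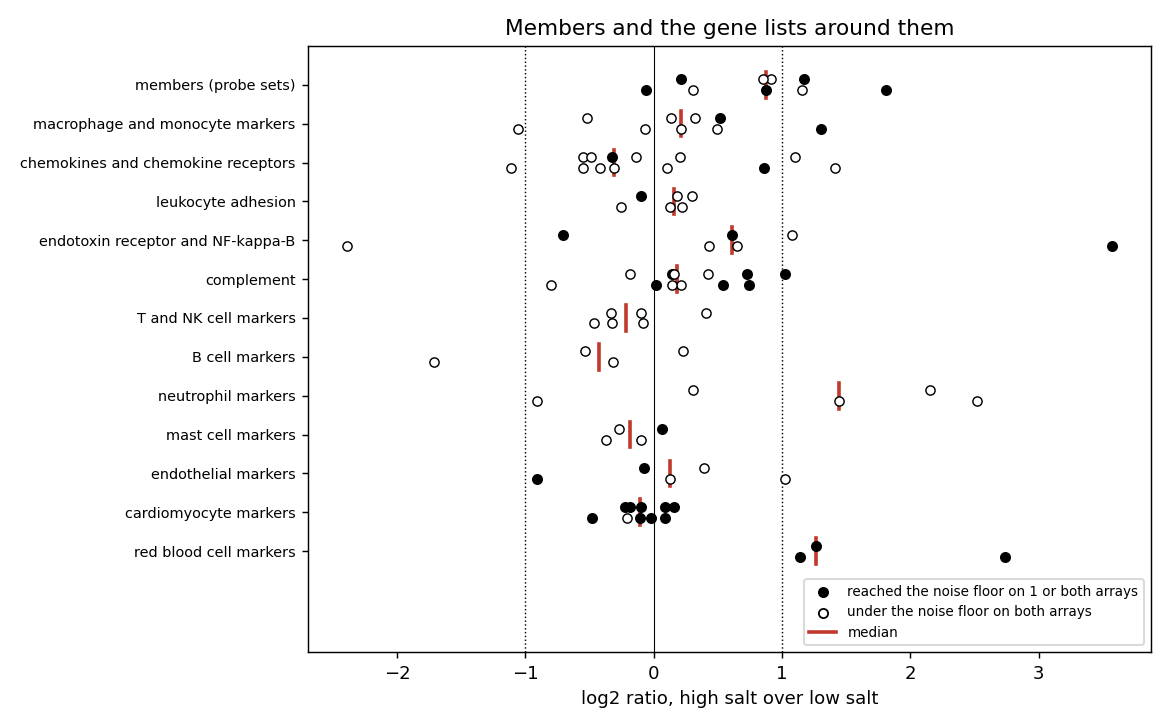
Log2 ratio, high-salt array over low-salt array (horizontal axis), for the 9 measured member probe sets (top) and for the measured genes of each list (1 point a gene, brightest probe set), with red bars at the medians and dotted lines at 2-fold. Filled points reached the noise floor on at least 1 array and open points on neither; the lymphocyte and neutrophil rows hold open points alone, and all 3 red blood cell genes lie past 2-fold.

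Markers of other cells were read beside the members because Lyz2 and Cd48 are not limited to macrophages. Of 6 neutrophil genes with a probe set, 5 were measured, 3 of them at least 2-fold higher, 0 lower and 2 neither, beside 7.3% higher and 7.27% lower over all genes. The list median was 1.45, but 0.42 with the floor at the 60th percentile and 2.81 with log2(value + 1). These medians cover unlike sets of genes: that floor left only S100a8 and S100a9 measured, whereas log2(value + 1) took in all 6. S100a9, a calcium-binding protein abundant in neutrophils and monocytes, read 62.6 with high salt and -6.1 with low salt, and its partner S100a8 48.4 with high salt and -6.1 with low salt. RatNP-3b, a neutrophil defensin named after its values were seen, went the other way at 4.1 with high salt and 20.5 with low salt. No gene of that list reached the noise floor. The T and NK cell list, with 6 of 13 genes measured, none past 2-fold and none at the noise floor, had a median of -0.22, and 4 of its genes, among them Cd3d and Cd8a, were at or below 0 on both arrays. Cd8b read 84.9 with high salt and 89.9 with low salt and the granule protease Gzmb 60.9 with high salt and 84.2 with low salt. Cd2, the ligand of Cd48 in the rat, read -11.0 with high salt and 4.9 with low salt. The 4 B cell genes had a median of -0.43, with Cd37 at 22.4 with high salt against 73.3 with low salt as the one past 2-fold and Cd79b at 28.4 with high salt against 41.2 with low salt. Mast cell genes had a median of -0.18 over 4 measured, led by Tpsb2 at 138.0 with high salt against 131.8 with low salt and Tpsab1 at 65.9 with high salt against 70.6 with low salt. Of 5 endothelial genes measured, 1 was at least 2-fold higher, 0 were lower and 4 were neither, and 3 had a ratio above 1. Their median was 0.13, but -0.46 against the noise floor over the 2 that reached it, Cav1 at 135.5 with high salt against 254.4 with low salt and Flt1 at 121.3 with high salt against 127.9 with low salt. The higher one, Kdr, a receptor of vascular endothelial growth factor, was named after its values were seen and read 43.6 with high salt and 21.5 with low salt. The red blood cell genes Alas2, Hbb and Slc4a1 were all at least 2-fold higher in their brightest probe set, but another Slc4a1 probe set, J04793_at, read 168.3 with high salt and 174.8 with low salt.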

How the data were processed

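The values deposited by the authors are linear intensities, with 1 reading of each probe set for each diet; how they were computed is not stated in the labels or the file. Total RNA was converted to biotin-labelled cRNA and fragmented, per the labels' protocols. The deposited intensities had 2% trimmed means within 0.0030% of each other, so they were used as deposited. The depth of arrays is set by their number, 1 per diet, so no test, SE or p-value was computed. Symbols were read from a 2016 annotation of the array, in which 7006 probe sets had 1 symbol, 308 several and 1426 none, controls left out. No probe set of several symbols held a member.

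Log2 ratios were high salt over low salt, after raising values to the lower floor. Genes with several probe sets were listed by the brightest. Named genes were all member probe sets. From each list, up to 4 genes with the largest ratios among those reaching the noise floor, or the 2 brightest, were named. The picks of this rule from the heart muscle list are not given. The receptors of the chemokines, the partners of Cd14 and the 3 probe sets nearest to Lyz2 were named too. Some others are marked as chosen after their values were seen. C1qc, Itgam, Cd4, Cd2, Cd3d, Cd8a, Ctsb, Psap, Lamp1, Myh6 and Myh7 were also named outside the rule, without such a mark. The members and lists were chosen with earlier results of these data known. Alternatives were 3 scalings, other floors, log2(value + 1), other thresholds and other probe set rules. The ratio steps were tested on simulated arrays, with changes planted only in probe sets brighter at low salt than any member reading. The simulation therefore did not check calls in the range of the members. Python 3.11.15, numpy 2.4.6, pandas 2.3.3 and matplotlib 3.10.9 were used.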

Additional observations from a re-analysis of the deposited data

How the results depend on the processing

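Of the 3 member probe sets at least 2-fold higher, 1 remained with readings raised to the noise floor and 1 at a 3-fold threshold, while 6 passed at 1.5-fold; the limits produce this by construction. The count of lower probe sets was 1 in place of 0 with log2(value + 1), because X71127_g_at of C1qb, near 0 on both arrays, then gets a ratio. The median log2 ratio of the members was 0.33 against the noise floor, where 5 probe sets were left. The other 28 of 33 recomputed member counts and medians changed little, but many of them could hardly change. The trimmed means were nearly equal before scaling, and no probe set of several symbols held a member. The 9 measured member probe sets were over the lower floor on both arrays, and the 30th percentile floor of 2.2 left the same 9 measured. Of 59 recomputed ratios of single member probe sets, 1 moved by more than the spread between probe sets of a gene: AF030358_g_at of Cx3cl1, to 0.33 against the noise floor. Against that floor both Ccl2 probe sets, AF030358_at of Cx3cl1 and AF087943_s_at of Cd14 became unmeasured. The 59 leave them out at that setting. The Lyz2 log2 ratio ran from 1.81 to 1.90 over 7 alternatives. Both Lyz2 readings were over every floor tried, so the floor settings could not move its ratio, and scaling to the trimmed means hardly could. The log2 ratio of Cd48 ran from -0.06 to 0.03 and so has no direction. Against the noise floor, where 1 or 2 genes were left in each, the list medians changed sign for chemokines and receptors (0.25), leukocyte adhesion (-0.10), mast cells (0.07) and endothelium (-0.46). List medians moved most for the dim neutrophil genes, between 0.42 and 2.81, where the number of genes measured also changed. The planned floor at the 20th percentile was not run because that percentile was -7.4; the 30th percentile took its place after the data were seen. No paired analysis was possible because each diet has 1 array.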

Other observations

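Lysozyme is stored in lysosomes, and a list of lysosomal enzymes and membrane proteins was written after the Lyz2 and Fuca1 values were seen. With 22 genes measured, the high-salt reading was 2-fold or more above the low-salt reading for 4 and below it for 2, and 16 were neither, beside 7.3% higher and 7.27% lower over all genes, and the median log2 ratio was 0.19. The median was 0.06 over the 15 that passed the noise floor. Against that floor 2 were past 2-fold, Fuca1 at 2.90-fold and Ctsl. Fuca1 was named earlier for readings close to those of Lyz2. Its place in both counts of higher genes was therefore fixed before the list was written. Ctsl, a cathepsin protease found in most cells, read 1151.5 with high salt and 471.5 with low salt, and its other probe set read 137.8 with high salt and 74.2 with low salt. Man2b1, also of the list, read 174.4 with high salt and 85.9 with low salt, a log2 ratio of 1.02. Its second probe set read 18.6 with high salt and 28.3 with low salt, under the noise floor. Ctsb, another cathepsin, read 643.1 with high salt and 337.3 with low salt, a log2 ratio of 0.93. Ctsc, which activates granule proteases of leukocytes, went the other way at 81.3 with high salt and 169.0 with low salt, and its second probe set read 53.5 with high salt and 110.6 with low salt. Psap, the precursor of the saposins, read 1769.0 with high salt and 1823.8 with low salt in its brightest probe set. Its other probe sets read 579.5 with high salt against 740.9 with low salt, and 447 with high salt against 666.7 with low salt. Lamp1, a major lysosomal membrane protein, read 763.1 with high salt and 770.0 with low salt in its brightest probe set.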
